A study of Mus musculus with 6 samples.

Results

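The uptake of glucose and its conversion to lactate are followed here through 10 genes: Slc2a1, Hk2, Gpi1, Aldoa, Tpi1, Gapdh, Pgk1, Pgam1, Eno1 and Ldha. They were chosen by name, with earlier results of these data known. Of the 31053 features in the count tables, 11 carried 1 of the 10 symbols. Aldoa had 2 entries, and the second (ENSMUSG00000114515) held 2 UMIs over all the cells summed here, so the values below are those of ENSMUSG00000030695. All 10 genes were detected.

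Single cells from the pancreatic lymph nodes of 6 mice were sequenced on the 10x Genomics droplet platform, which tags each captured RNA molecule with a unique molecular identifier (UMI). In 3 Cre-positive mice a floxed gene was combined with the CD4-Cre transgene, and 3 Cre-negative mice had the same floxed gene without the transgene. All 6 mice thus share the floxed gene, and an effect of the Cre transgene itself cannot be told apart from an effect of the deletion. CD4-Cre acts in T cells, since precursors of both CD4 and CD8 cells pass through a stage that expresses Cd4, so B cells lie outside the targeted lineage. Strain, sex, age and the floxed exons are not stated in the labels.

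Glycolysis splits glucose into pyruvate in the cytosol and yields ATP and building blocks without oxygen. Resting lymphocytes make most of their ATP in mitochondria, and activated and dividing lymphocytes are known to raise glucose uptake and to turn much of the pyruvate into lactate. Slc2a1 (GLUT1) carries glucose into the cell, and Hk2 (hexokinase 2) phosphorylates it. Gpi1 (glucose-6-phosphate isomerase) and Aldoa (aldolase A) prepare and split the sugar, and Tpi1 (triosephosphate isomerase) interconverts the resulting triose phosphates. Gapdh, Pgk1 (phosphoglycerate kinase), Pgam1 (phosphoglycerate mutase) and Eno1 (enolase 1) carry out the payoff steps, in which Pgk1 makes ATP. Ldha (lactate dehydrogenase A) reduces pyruvate to lactate and so regenerates the NAD+ that Gapdh needs.

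The 10 genes are spread over 4 autosomes and the X chromosome in the GRCm38 (mm10) build, all protein coding in GENCODE M21. Slc2a1 (chr4:119108711-119137983, plus strand) and Eno1 (chr4:150236721-150248879, plus) share a chromosome. Hk2 (chr6:82725025-82774454, minus), Tpi1 (chr6:124810586-124814296, minus) and Gapdh (chr6:125161715-125166467, minus) lie on another. Ldha (chr7:46841475-46855627, plus), Gpi1 (chr7:34201330-34230336, minus) and Aldoa (chr7:126795234-126800751, minus) lie on chromosome 7. Pgk1 (chrX:106187100-106203699, plus) and Pgam1 (chr19:41911923-41918660, plus) each stand alone.

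All 10 symbols matched RefSeq promoter windows of GRCm38.p6, 15 windows in all, each with 250 bases before and 50 after an annotated start. The letters ACGTG, the core that hypoxia-inducible factors and other basic helix-loop-helix proteins bind, were searched on both strands. They occurred in 8 of the 15 windows, against 19.62% of 32851 windows genome-wide, and in 7 of the 10 genes. The 2 Aldoa windows with a match overlap and hold the same site. Some genes have more than 1 window, so counts of genes are not directly comparable with shares of windows. The longer palindrome CACGTG, which holds ACGTG on both strands, occurred in 1 of the 10 genes and in 7.15% of all windows. GCGTG, the other form of the hypoxia-inducible factor core, occurred in 5 of the 10 genes and in 32.39% of all windows. The windows printed here are those of the 5 genes whose levels in dividing T and dividing B cells lay wholly above those of the cells they were compared with, and of Slc2a1, which passed in neither. They run 5′ to 3′ on the gene's strand, with ACGTG or its complement CACGT in capitals. They are Tpi1 (chr6:124814109-124814408, minus), Gapdh (chr6:125165724-125166023, minus), Pgk1 (chrX:106186850-106187149, plus), Pgam1 (chr19:41911621-41911920, plus), the first of 2 Ldha windows (chr7:46845554-46845853, plus) and Slc2a1 (chr4:119108495-119108794, plus).
Tpi1: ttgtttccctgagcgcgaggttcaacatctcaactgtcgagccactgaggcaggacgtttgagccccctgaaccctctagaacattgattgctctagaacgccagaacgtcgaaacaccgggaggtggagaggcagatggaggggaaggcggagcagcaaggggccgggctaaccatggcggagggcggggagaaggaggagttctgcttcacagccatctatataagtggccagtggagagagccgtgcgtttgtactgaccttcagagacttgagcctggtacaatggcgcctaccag
Gapdh: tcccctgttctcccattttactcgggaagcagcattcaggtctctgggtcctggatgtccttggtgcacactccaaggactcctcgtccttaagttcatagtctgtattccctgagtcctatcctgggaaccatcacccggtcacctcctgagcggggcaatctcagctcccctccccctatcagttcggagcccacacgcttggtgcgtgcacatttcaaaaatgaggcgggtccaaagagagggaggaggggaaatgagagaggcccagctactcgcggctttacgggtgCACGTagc
Pgk1: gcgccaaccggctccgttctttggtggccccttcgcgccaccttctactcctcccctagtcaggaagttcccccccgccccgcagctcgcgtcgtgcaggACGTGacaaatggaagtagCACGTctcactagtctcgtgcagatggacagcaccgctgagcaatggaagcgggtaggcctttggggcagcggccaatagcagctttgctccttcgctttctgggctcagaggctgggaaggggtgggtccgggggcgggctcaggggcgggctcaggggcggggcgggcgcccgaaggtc
Pgam1: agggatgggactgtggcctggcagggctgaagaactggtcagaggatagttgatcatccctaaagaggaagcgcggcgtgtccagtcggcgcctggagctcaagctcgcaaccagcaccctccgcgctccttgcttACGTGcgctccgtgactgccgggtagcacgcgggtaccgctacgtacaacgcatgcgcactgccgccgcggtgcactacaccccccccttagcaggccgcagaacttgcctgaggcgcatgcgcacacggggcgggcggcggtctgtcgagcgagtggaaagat
Ldha: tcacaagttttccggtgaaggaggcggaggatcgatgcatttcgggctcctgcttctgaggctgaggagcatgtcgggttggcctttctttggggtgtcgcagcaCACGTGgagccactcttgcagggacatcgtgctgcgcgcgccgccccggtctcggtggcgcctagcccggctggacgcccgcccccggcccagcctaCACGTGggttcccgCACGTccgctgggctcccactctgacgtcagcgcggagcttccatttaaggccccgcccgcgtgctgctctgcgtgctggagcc
Slc2a1: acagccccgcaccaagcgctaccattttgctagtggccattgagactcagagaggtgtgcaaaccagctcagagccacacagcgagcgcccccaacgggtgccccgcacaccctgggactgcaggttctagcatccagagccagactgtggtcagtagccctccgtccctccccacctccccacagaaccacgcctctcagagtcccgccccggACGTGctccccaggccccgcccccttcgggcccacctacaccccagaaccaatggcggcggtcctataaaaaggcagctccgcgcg
Tpi1 had 0 matches, Gapdh, Pgam1 and Slc2a1 had 1 each and Pgk1 had 2. Ldha had 5, of which 2 CACGTG palindromes counted on both strands make up 4. The matches are a description of these letters in these windows.

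Cells were sorted in silico into 8 gates by the UMIs of marker genes: naive CD4, memory CD4, regulatory T, naive CD8, memory CD8, B, cycling T and cycling B cells. For each gate and mouse the UMIs of all cells were summed, and a level is given as CPM, the gene's UMIs per 1000000 UMIs of that sum. The libraries held 52857382 to 61321105 UMIs in Cre-positive and 47149014 to 51499167 in Cre-negative mice, and library pairs shared 16 to 39 cell barcodes of 8209 to 10936 each. Of the 51777 cells kept, 22783 fell into the 8 gates, with 815 to 1163 naive CD4 cells per mouse at the upper end of the T gates and 23 to 57 cycling B cells at the lower end. Genes that the gate rules did not use were read as a check. Cd44, which marks memory cells, averaged 97.7 CPM in memory CD4 and 23.5 CPM in naive CD4 cells, and 40.1 CPM in memory CD8 and 8.50 CPM in naive CD8 cells. Il2ra, part of the IL-2 receptor that regulatory T cells carry, averaged 227 CPM in regulatory T and 2.61 CPM in naive CD4 cells. Pclaf, a replication factor, averaged 502 CPM in cycling T and 2.17 CPM in non-cycling T cells.

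**Figure D1:**
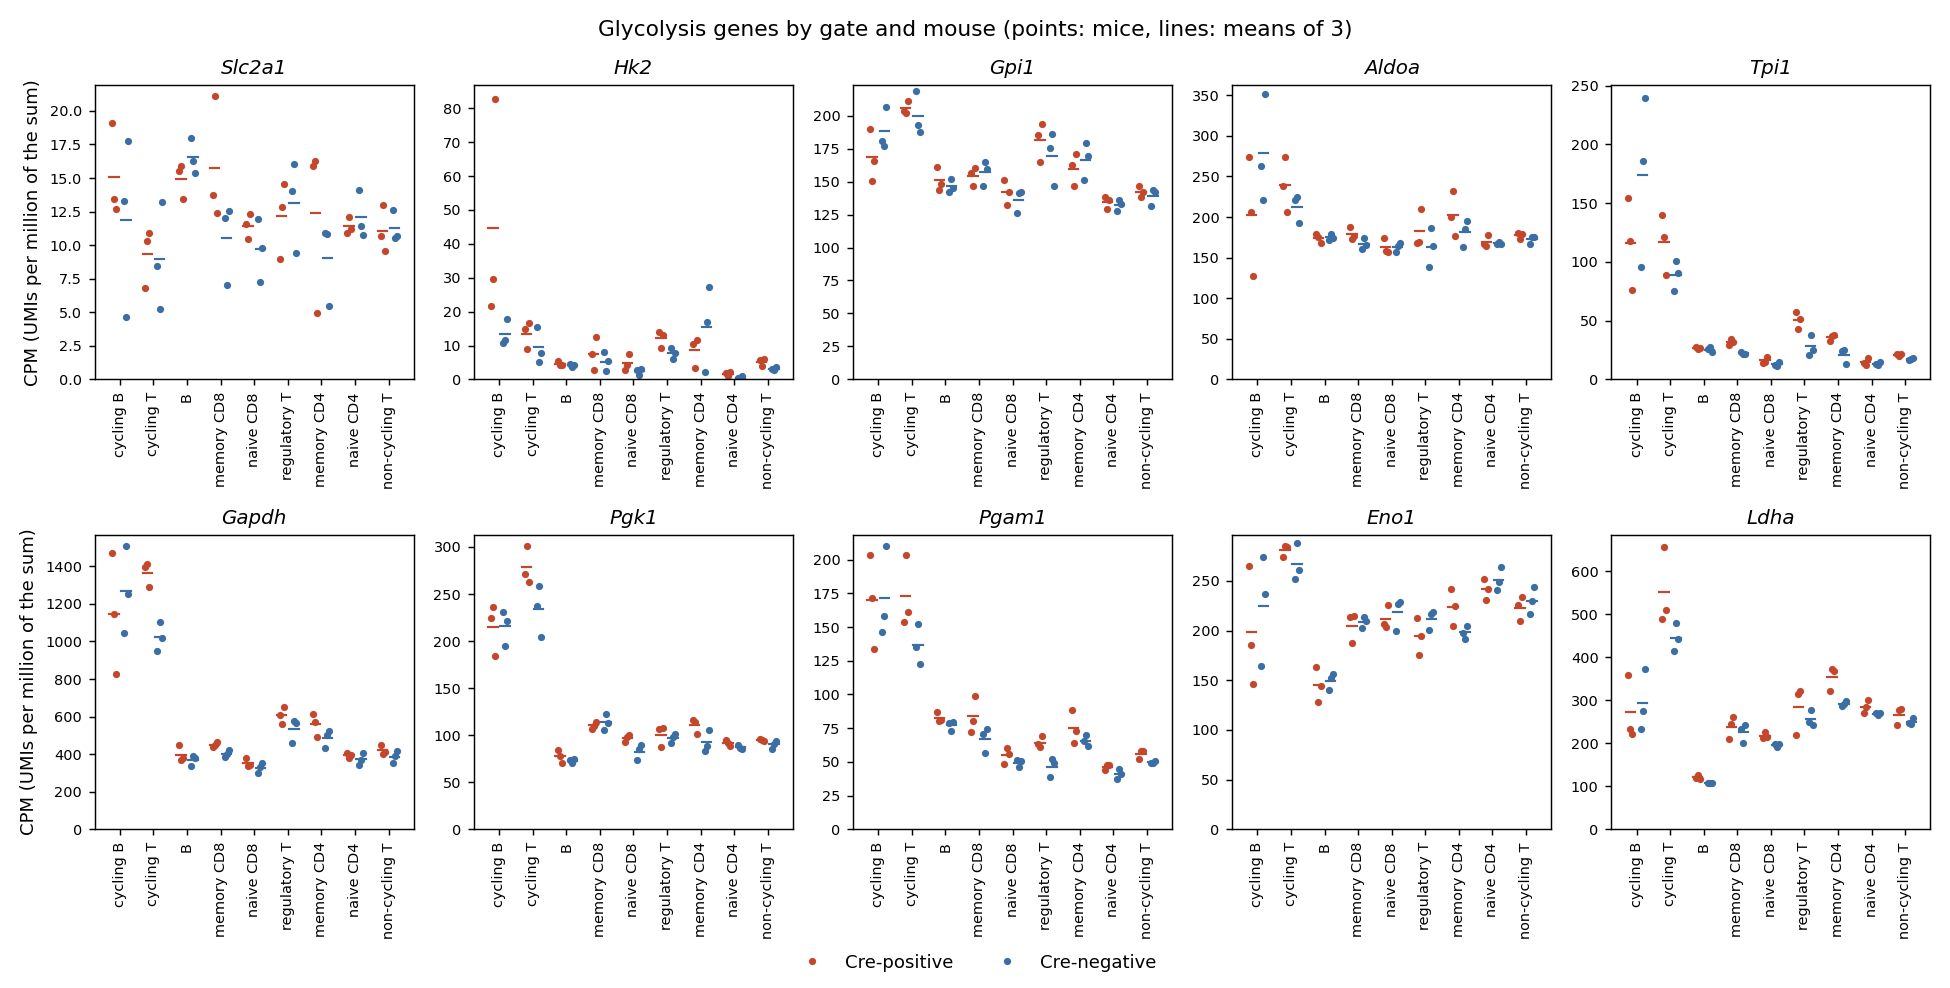
CPM (y axis, linear and starting at 0) of each of the 10 genes in the 8 gates and in non-cycling T cells, 1 point per mouse, with Cre-positive left of Cre-negative mice and a line at the mean of each group of 3. Tpi1, Gapdh, Pgk1 and Pgam1 stand highest in the 2 cycling gates, while the ratio of the highest to the lowest gate mean is at most 1.86 for Gpi1, Aldoa, Eno1 and Slc2a1.

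The genes differed widely in how far their level moved between cell types. The ratio of the highest to the lowest gate mean was 27.0 for Hk2 and 10.2 for Tpi1. The Hk2 ratio rests on few molecules, 69 UMIs over the 6 cycling B sums and 33 over the 6 naive CD4 sums. Its cycling B values ran from 10.6 to 82.8 CPM. It was 4.36 for Ldha, 3.90 for Pgam1, 3.55 for Gapdh and 3.40 for Pgk1. For Eno1, Slc2a1, Gpi1 and Aldoa it lay between 1.48 and 1.86. The plot of levels by gate shows this as steep and flat panels. Levels are not compared between genes here, since 3' counts depend on the transcript. Several of the genes, Gapdh among them, have near-identical pseudogenes in the mouse genome, and how reads shared with them were counted is not given in the sources used here.

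Gates were ordered by their mean over the 6 mice. Tpi1 averaged 145 ± 60.9 CPM in cycling B and 103 ± 23.6 CPM in cycling T cells, which overlapped each other and lay above the other 6 gates (SD, n = 6 each). Below them came regulatory T cells with 39.5 ± 14.5 CPM, and memory CD4, memory CD8 and B cells with means between 26.1 and 28.3 CPM, neighbours whose ranges overlapped. Naive CD8 (14.5 ± 2.84 CPM) and naive CD4 cells (14.2 ± 2.14 CPM) had the lowest means, with ranges that overlapped that of memory CD4 cells and lay below those of the other gates. Gapdh and Pgam1 also had both cycling gates on top without overlap with the next gate, and Pgk1 had cycling T before cycling B cells.

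The other genes ordered the gates differently. Ldha was highest in cycling T cells (499 ± 84.7 CPM), followed at a distance by memory CD4 cells (323 ± 38.7 CPM), and lowest in B cells (115 ± 7.56 CPM, SD, n = 6 each), where the range lay below that of every other gate. Eno1 was highest in cycling T cells (274 ± 14.8 CPM) and next in naive CD4 cells (246 ± 11.5 CPM), whose ranges overlapped, and again lowest in B cells (147 ± 12.6 CPM). Hk2 was lowest in naive CD4 cells (1.07 ± 0.780 CPM) and highest in cycling B cells (29.0 ± 27.2 CPM), and its neighbouring gates overlapped at every step. So did those of Gpi1, Aldoa and Slc2a1, the last with means between 9.15 CPM in cycling T and 15.8 CPM in B cells.

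Most of the 10 genes were higher in dividing T cells than in other T cells, with the largest log2 fold changes for Tpi1, Gapdh and Pgam1. Cycling T cells had 2 or more UMIs over 6 proliferation genes such as Mki67, and non-cycling T cells had 0. In cycling T cells 9 of the 10 genes rose by edgeR's quasi-likelihood test with the mouse as a block and Benjamini-Hochberg adjustment over all genes tested. None fell, and Slc2a1 did not pass. Each library came from a separate mouse, so the test sets the difference between the gates against its variation from mouse to mouse. That variation is estimated partly from all genes tested, so a p-value does not give the spread of 1 gene between mice. Log2 fold changes come from that fit, with TMM scaling, and so differ slightly from ratios of the CPM. In this comparison 48.9% of all genes tested passed in either direction. The median log2 fold change was 1.12 over the 10 genes and -0.08 over all genes tested.

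Tpi1 changed most. It measured 140, 121 and 89.0 CPM in cycling T cells of Cre-positive mice and 75.4, 101 and 91.0 CPM in those of Cre-negative mice, against 16.8 to 22.1 CPM in non-cycling T cells of all 6. Every cycling value stood above every non-cycling value, and the log2 fold change was 2.31 ± 0.09 (SE, adjusted p = 3.97e-142, higher in 6 of 6 mice). Gapdh measured 949, 1196 and 1411 CPM (lowest, median, highest of 6 mice) in cycling T cells, against 354, 408 and 446 CPM in non-cycling T cells. Again the ranges were apart, with a log2 fold change of 1.47 ± 0.05 (SE, adjusted p = 3.67e-213).

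Pgk1 and Pgam1, which follow Gapdh in the pathway, rose by similar amounts. Pgk1 had 204, 261 and 301 CPM in cycling T cells, against 85.4, 94.0 and 96.3 CPM in non-cycling T cells (log2 fold change 1.38 ± 0.06, SE). Pgam1 had 123, 153 and 204 CPM in cycling T cells, against 49.2, 51.5 and 58.3 CPM in non-cycling T cells (1.46 ± 0.07). Ldha at the end of the pathway had 415, 484 and 657 CPM in cycling T cells, against 243, 253 and 280 CPM in non-cycling T cells (0.85 ± 0.05). None of the 3 ranges overlapped, and each gene was higher in 6 of 6 mice.

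The other members moved less or rested on few molecules. Hk2 rose by a log2 fold change of 1.38 ± 0.23 (SE, adjusted p = 1.32e-08), with 5.24, 11.9 and 16.6 CPM in cycling T cells, against 2.89, 3.86 and 6.06 CPM in non-cycling T cells. These ranges overlapped, and the cycling sums held 5 to 26 Hk2 UMIs each. Gpi1 (0.45 ± 0.06), Aldoa (0.29 ± 0.06) and Eno1 (0.19 ± 0.06) passed with small log2 fold changes. Slc2a1, the glucose carrier, had a log2 fold change of -0.37 ± 0.20 (SE, adjusted p = 0.111) and was higher in 2 of 6 mice. With stricter gates it passed as lower (-0.56, adjusted p = 0.0495).

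Other genes also set the cycling T cells apart. Lef1 and Il7r, which mark resting T cells, averaged 255 and 124 CPM in cycling T, against 665 and 400.0 CPM in non-cycling T cells, and Cd44 averaged 69.9 CPM in cycling T and 32.7 CPM in non-cycling T cells. The 7 stress genes, Fos and Jun among them and none at 0, summed to 1417 to 1718 CPM in cycling T and 2322 to 2911 CPM in non-cycling T cells, and the part of these differences in the result was not tested.

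Cycling T cells were also deeper, with a median of 6196 to 13013 UMIs per cell against 4444 to 5806 in non-cycling T cells. After every cell was thinned to 2000 UMIs and gated anew, which left 29 to 44 cycling T cells per mouse, Tpi1 (log2 fold change 1.43), Gapdh (1.18), Pgk1 (1.11), Pgam1 (0.94) and Ldha (0.42) still passed. Hk2 (1.64, adjusted p = 0.102) and Gpi1 (0.27, adjusted p = 0.293) no longer passed, and Aldoa (-0.02) and Eno1 (-0.001) changed sign without passing.

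In dividing B cells Hk2 and Tpi1 had the largest log2 fold changes. In cycling B cells 8 of the 10 genes rose over B cells, where 41.1% of all genes tested passed, and none fell. The median log2 fold change was 1.14 over the 10 genes and -0.05 over all. Hk2, Tpi1, Gapdh, Pgk1, Ldha, Pgam1, Eno1 and Aldoa passed, while Gpi1 (0.21 ± 0.11, SE, adjusted p = 0.116) and Slc2a1 (-0.24 ± 0.27, adjusted p = 0.504) did not.

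Tpi1 measured 154, 118 and 76.4 CPM in cycling B cells of Cre-positive mice and 95.7, 186 and 239 CPM in those of Cre-negative mice, against 23.2 to 27.7 CPM in B cells. The cycling values spread over a wider range than in T cells but all stood above the B cell values (log2 fold change 2.39 ± 0.19, SE, adjusted p = 1.19e-07). Gapdh had 828, 1200 and 1507 CPM in cycling B cells, against 337, 381 and 447 CPM in B cells (1.59 ± 0.10). Pgk1 (1.46 ± 0.11) had 185, 223 and 236 CPM in cycling B cells, against 70.6, 74.2 and 84.5 CPM in B cells.

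Ldha had 223, 254 and 372 CPM in cycling B cells, against 107, 113 and 126 CPM in B cells (log2 fold change 1.24 ± 0.11, SE). Pgam1 had 134, 165 and 210 CPM in cycling B cells, against 72.9, 79.8 and 87.2 CPM in B cells (1.04 ± 0.11). Both were higher in 6 of 6 mice with no overlap. Hk2 had 10.6, 19.7 and 82.8 CPM in cycling B cells, against 3.53, 4.29 and 5.40 CPM in B cells (2.48 ± 0.34). Its highest value, in Cre-positive mouse 3, came from 26 UMIs in 7 of 28 cells, 9 of them in 1 cell.

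Aldoa (0.39 ± 0.12, SE, adjusted p = 0.0104) did not pass without Cre-negative mouse 1 (0.31), Cre-negative mouse 3 (0.24) or Cre-positive mouse 1 (0.33). The cycling B sums also carried other cell types' RNA in places. The red cell genes Hba-a1 and Hbb-bs summed to 26840 CPM in cycling B and 4591 CPM in B cells of Cre-negative mouse 1, against at most 9.06 CPM in both gates of the other mice. The 6 myeloid markers, 3 of which were at 0 in this gate, summed to 2635 CPM in Cre-positive mouse 3, while the other mice ran from 260 to 475 CPM. The 3 plasma cell markers summed to 5624 CPM in Cre-positive mouse 2, against 309 to 644 CPM in the others. Without Cre-negative mouse 1, 7 of the 10 genes passed, with Tpi1 at 2.44 and Gapdh at 1.55. Without Cre-positive mouse 2 or Cre-positive mouse 3, 8 passed, with Hk2 at 2.38 or 1.97. Cycling B cells had a median of 6136 to 10656 UMIs per cell, against 3849 to 5113 in B cells. With cells thinned to 2000 UMIs, which left 13 to 29 cycling B cells per mouse, Tpi1 (2.14), Gapdh (1.15), Pgk1 (1.17) and Pgam1 (0.87) still passed. Hk2 (1.847, adjusted p = 0.1405), Ldha (0.325, adjusted p = 0.416) and Eno1 (0.068, adjusted p = 0.8743) did not. Aldoa changed sign (-0.54, adjusted p = 0.135).

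Among non-dividing CD8 cells, memory cells had higher levels of Tpi1, Pgam1, Gapdh and Pgk1 than naive cells. In memory CD8 cells 7 of the 10 genes rose over naive CD8 cells and none fell, where 15.9% of all genes tested passed. The median log2 fold change was 0.31 over the 10 genes and -0.01 over all. Tpi1 measured 29.7, 34.6 and 31.9 CPM in memory CD8 cells of Cre-positive mice and 23.5, 22.0 and 21.9 CPM in those of Cre-negative mice, against 11.6 to 19.5 CPM in naive CD8 cells of all 6. All memory values were above all naive values (0.92 ± 0.13, SE, adjusted p = 1.62e-10).

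Pgam1 had 56.5, 73.2 and 99.1 CPM in memory CD8 cells, against 46.4, 51.2 and 60.2 CPM in naive CD8 cells (log2 fold change 0.52 ± 0.08, SE). Gapdh had 385, 430 and 466 CPM in memory CD8 cells, against 297, 341 and 377 CPM in naive CD8 cells (0.32 ± 0.04). Pgk1 had 105, 112 and 122 CPM in memory CD8 cells, against 73.7, 91.0 and 99.8 CPM in naive CD8 cells (0.30 ± 0.06). The Pgam1 ranges overlapped and those of Gapdh and Pgk1 did not, and all 3 genes were higher in 6 of 6 mice.

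Hk2 (0.76 ± 0.27, SE, adjusted p = 0.0388), Ldha (0.15 ± 0.04, adjusted p = 0.0052) and Gpi1 (0.15 ± 0.05, adjusted p = 0.0267) passed as well. Slc2a1 (0.34 ± 0.17, adjusted p = 0.192), Aldoa (0.08 ± 0.05) and Eno1 (-0.07 ± 0.05) did not. Hk2 no longer passed without Cre-negative mouse 1 (0.60) or 3 (0.76) or Cre-positive mouse 1 (0.64) or 3 (0.77). Gpi1 no longer passed without Cre-negative mouse 1 (0.13) or 2 (0.13) or Cre-positive mouse 2 (0.15) or 3 (0.15), nor Ldha without Cre-positive mouse 3 (0.13). By DESeq2, and also without the mouse block, Hk2, Gpi1 and Ldha lost the call and 4 of the 10 genes passed. Hk2 and Ldha lost it with stricter gates too. Hk2 and Gpi1 lost it without the low-count filter, and Gpi1 under the 5% mitochondrial limit. Slc2a1 passed with stricter gates (0.69, adjusted p = 0.0383). Memory CD8 cells had a median of 6684 to 9099 UMIs per cell, against 5290 to 6829 in naive CD8 cells. When all cells were thinned to 2000 UMIs, leaving 27 to 65 memory CD8 cells per mouse, Tpi1, Hk2 and Slc2a1 fell under the low-count filter and were not tested, and none of the other 7 genes passed. Gapdh then had a log2 fold change of 0.33 (adjusted p = 0.0824), Pgam1 0.69 (adjusted p = 0.0908), Pgk1 0.14 (adjusted p = 0.836) and Ldha 0.04 (adjusted p = 0.931).

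In the CD4 lineage the memory cells shared the rise of Tpi1, Pgam1 and Gapdh but had less Eno1. In memory CD4 cells 4 of the 10 genes rose over naive CD4 cells and 1 fell, where 22.0% of all genes tested passed. The median log2 fold change was 0.11 over the 10 genes and -0.002 over all. Tpi1 measured 33.0, 37.2 and 38.1 CPM in memory CD4 cells of Cre-positive mice and 24.1, 24.8 and 12.8 CPM in those of Cre-negative mice, against 12.02 to 18.05 CPM in naive CD4 cells. The value of Cre-negative mouse 3 lay within the naive range and the other 5 above it (0.87 ± 0.18, SE, adjusted p = 9.23e-05).

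Gapdh had 432, 512 and 613 CPM in memory CD4 cells, against 341, 388 and 408 CPM in naive CD4 cells (log2 fold change 0.30 ± 0.05, SE). Pgam1 had 62.0, 67.6 and 88.6 CPM in memory CD4 cells, against 37.6, 44.4 and 47.6 CPM in naive CD4 cells (0.54 ± 0.10). Neither gene's ranges overlapped. Eno1 ran the other way, with 192, 205 and 242 CPM in memory CD4 cells, against 230, 245 and 264 CPM in naive CD4 cells, and was lower in 6 of 6 mice (-0.37 ± 0.06, adjusted p = 2e-06). Hk2 rose by 3.20 ± 0.46 on the log2 scale, resting on 46 UMIs over the 6 memory CD4 sums and 33 over the 6 naive CD4 sums, and naive CD4 cells had its lowest level of the 8 gates.

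The memory CD4 gate held RNA of other cells. Cd74 plus H2-Aa, class II genes of B and dendritic cells, summed to 303, 479 and 4098 CPM in memory CD4 cells of Cre-positive mice and to 755, 3285 and 1332 CPM in those of Cre-negative mice, against 62.8 to 81.0 CPM in naive CD4 cells. With T cells over 2 such UMIs left out, a choice made after seeing these values, Hk2 (2.77), Tpi1 (0.96), Gapdh (0.35), Pgam1 (0.53) and Eno1 (-0.30) still passed and Ldha (0.17, adjusted p = 0.0323) passed as well. Stress genes such as Fos and Jun, 7 in all and none at 0, summed to 3950 to 4323 CPM in memory CD4 and 2163 to 2799 CPM in naive CD4 cells, and their part in the result was not tested. When cells were thinned to 2000 UMIs, Hk2 and Slc2a1 were left out by the low-count filter, and of the 8 genes tested Eno1 passed (-0.45, adjusted p = 0.0259). Tpi1 (1.04, adjusted p = 0.177), Gapdh (0.23, adjusted p = 0.168) and Pgam1 (0.49, adjusted p = 0.328) no longer passed.

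Regulatory T cells, which carry Foxp3 and restrain other T cells, had the highest mean Tpi1 of the non-dividing gates and less Eno1 than naive CD4 cells. Of the 10 genes 4 rose and 3 fell, where 37.1% of all genes tested passed. The median log2 fold change was 0.03 over the 10 genes and -0.004 over all. Tpi1 measured 57.8, 43.3 and 51.7 CPM in regulatory T cells of Cre-positive mice and 21.1, 38.1 and 25.2 CPM in those of Cre-negative mice, against 12.02 to 18.05 CPM in naive CD4 cells. All 6 regulatory T values lay above all naive values (1.25 ± 0.16, SE, adjusted p = 7.54e-11).

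Gapdh had 458, 572 and 651 CPM in regulatory T cells, against 341, 388 and 408 CPM in naive CD4 cells (log2 fold change 0.37 ± 0.04, SE). Eno1 had 175, 206 and 219 CPM in regulatory T cells, against 230, 245 and 264 CPM in naive CD4 cells (-0.49 ± 0.06, adjusted p = 1.5e-10). Both pairs of ranges were apart. Hk2 (3.00 ± 0.41) rested on 45 UMIs in the 6 regulatory T sums. Gpi1 (0.19 ± 0.07, adjusted p = 0.0184) rose, and Ldha (-0.24 ± 0.06, adjusted p = 8.8e-04) and Aldoa (-0.18 ± 0.07, adjusted p = 0.0287) fell in this fit with TMM scaling. In CPM, Ldha was higher in regulatory T cells in 3 of 6 mice and Aldoa in 4 of 6. Mean Ldha was 271 CPM in regulatory T and 277 CPM in naive CD4 cells, and mean Aldoa was 173 and 169 CPM.

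Gpi1 no longer passed without Cre-negative mouse 1 (0.19) or Cre-positive mouse 3 (0.17). Aldoa no longer passed without Cre-negative mouse 1 (-0.11) or 3 (-0.16) or Cre-positive mouse 1 (-0.18). Gpi1 also lost the call by DESeq2, without the low-count filter, under the 5% mitochondrial limit and with stricter gates. Aldoa lost it by DESeq2, with stricter gates and without the mouse block, and Ldha lost it with stricter gates.

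Small differences from naive CD4 cells depended on the scaling. With total UMI counts in place of TMM factors, the median of all genes shifted by 0.20 (log2) in the regulatory T and by 0.15 in the memory CD4 comparison. The share of called genes that were higher was then 79.51% in regulatory T cells, against 51.83% with TMM, and 83.3% in memory CD4 cells, against 58.61%. On that scale Ldha in regulatory T cells (-0.03) no longer passed, Aldoa changed sign (0.03, adjusted p = 0.792) and Pgam1 (0.34) passed. In memory CD4 cells Gpi1 (0.29), Aldoa (0.19) and Ldha (0.22) passed as higher. Eno1 still fell in memory CD4 (-0.22) and regulatory T cells (-0.28). With cells thinned to 2000 UMIs, Hk2 and Slc2a1 were not tested in regulatory T cells, and of the other 8 genes Eno1 passed (-0.45, adjusted p = 0.0221). Tpi1 (0.95, adjusted p = 0.198), Gapdh (0.04, adjusted p = 0.859), Ldha (-0.31, adjusted p = 0.0971), Gpi1 (0.02) and Aldoa (-0.28) no longer passed. Stress genes summed to 4300 to 5130 CPM in regulatory T cells and 2163 to 2799 CPM in naive CD4 cells, and their part in the result was not tested.

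Between the 2 naive T cell lineages Hk2 had the largest log2 fold change, from few molecules, and Ldha and Pgam1 had the next largest. In naive CD8 cells 3 of the 10 genes rose over naive CD4 cells and 3 fell, where 36.1% of all genes tested passed, with a median log2 fold change of 0.05 over the 10 genes and 0.003 over all. Ldha had 192, 205 and 225 CPM in naive CD8 cells, against 266, 271 and 301 CPM in naive CD4 cells, with the ranges apart and the gene lower in 6 of 6 mice (-0.35 ± 0.03, SE, adjusted p = 1.29e-22). Hk2 (1.88 ± 0.30), Pgam1 (0.34 ± 0.06) and Gpi1 (0.13 ± 0.04) rose, and Eno1 (-0.12 ± 0.03) and Gapdh (-0.10 ± 0.03) fell. Hk2 rested on 86 UMIs over the 6 naive CD8 sums and 33 over the 6 naive CD4 sums. Its range of 1.45 to 7.46 CPM in naive CD8 cells overlapped that of 0.204 to 2.17 CPM in naive CD4 cells, though it was higher in 6 of 6 mice. Tpi1 (0.11 ± 0.11, adjusted p = 0.46), Pgk1, Aldoa and Slc2a1 did not pass, though Pgk1 did without Cre-negative mouse 1 (0.14, adjusted p = 0.0189). With total UMI counts the share of called genes that were higher in naive CD8 cells was 32.83%, against 50.57% with TMM, and Gpi1 (0.06, adjusted p = 0.232) no longer passed. With thinned cells Pgam1 (0.73) and Ldha (-0.23) still passed, Gpi1 (0.17), Gapdh (-0.04) and Eno1 (0.007) did not, and Hk2 was not tested. Gapdh and Eno1 also lost the call with stricter gates and without the mouse block, and Gapdh under the 5% mitochondrial limit. Gpi1 lost it by DESeq2 and without the mouse block.

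B cells held much less Ldha and Eno1 than naive CD4 cells and more Tpi1 and Pgam1. In B cells 5 of the 10 genes rose over naive CD4 cells and 3 fell, where 72.1% of all genes tested passed, with a median log2 fold change of 0.09 over the 10 genes and 0.01 over all. Ldha had 107, 113 and 126 CPM in B cells, against 266, 271 and 301 CPM in naive CD4 cells (-1.29 ± 0.04, SE, adjusted p = 1.03e-45). Eno1 had 128, 148 and 163 CPM in B cells, against 230, 245 and 264 CPM in naive CD4 cells (-0.76 ± 0.04). Pgk1 fell by a smaller amount (-0.26 ± 0.04). The Ldha and Eno1 ranges were apart, and all 3 genes were lower in 6 of 6 mice.

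Pgam1 (log2 fold change 0.85 ± 0.05, SE), Tpi1 (0.85 ± 0.09), Hk2 (1.99 ± 0.26), Slc2a1 (0.40 ± 0.10) and Gpi1 (0.14 ± 0.04) rose in B cells. For Tpi1 the B cell values ran from 23.2 to 27.7 CPM, against 12.02 to 18.05 CPM in naive CD4 cells. Of the 7 comparisons between gates, this was the single instance where Slc2a1 passed with the gates as defined, at 13.5 to 18.0 CPM in B cells against 10.8 to 14.1 CPM in naive CD4 cells. Gapdh (-0.02 ± 0.03, adjusted p = 0.624) and Aldoa (0.03 ± 0.04, adjusted p = 0.407) did not pass. With thinned cells Pgk1 (-0.06, adjusted p = 0.639) no longer passed, Aldoa (0.28) did and Hk2 was not tested.

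**Figure D2:**
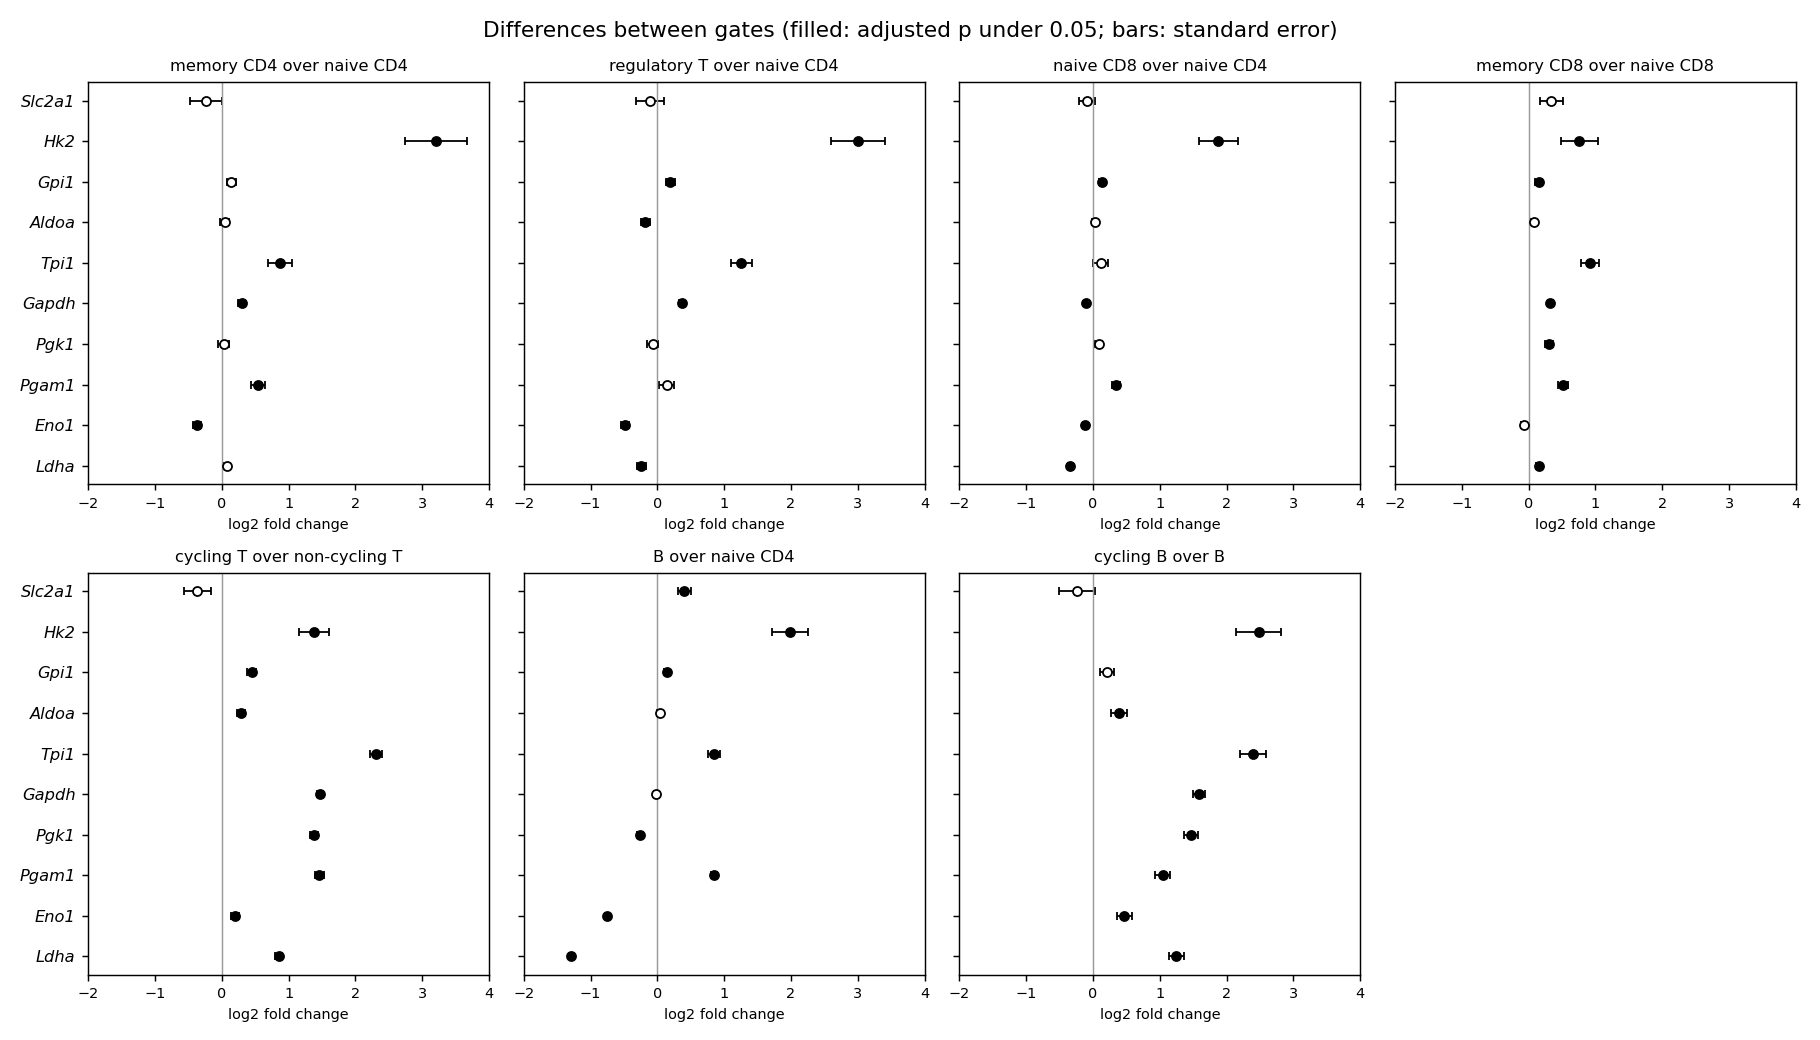
Log2 fold change (x axis) of each of the 10 genes in the 7 comparisons between gates, with bars of 1 SE, filled where the adjusted p passed 0.05 and open where it did not. Tpi1 lies to the right of 0 in all 7 panels, from 0.11 in naive CD8 over naive CD4 to 2.39 in cycling B over B, while Eno1 lies to the left in 5 and to the right in the 2 cycling comparisons.

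Other genes of sugar metabolism moved in both directions. A list of 27 further pathway genes holds isoenzymes, phosphofructokinases, lactate carriers and the entry to the mitochondrion. In cycling T over non-cycling T cells 8 of the 24 tested rose and 3 fell, where 48.9% of all genes passed, with a median log2 fold change of 0.25. Pkm, the pyruvate kinase of the last ATP-making step, averaged 370 ± 78.8 CPM in cycling T and 173 ± 6.37 CPM in non-cycling T cells (SD, n = 6 each, log2 fold change 0.99). Slc16a3, a lactate exporter, rose by 2.15 ± 0.42 (SE) at 4.60 CPM in cycling T and 0.917 CPM in non-cycling T cells. In cycling B over B cells, where 41.1% of all genes passed, 5 of 19 rose, Pkm (1.17) and Pfkp (1.53), a phosphofructokinase subunit, among them, and 4 fell, with Slc2a3, the glucose carrier GLUT3, at -1.33.

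In regulatory T over naive CD4 cells 5 of 20 of these genes rose and 2 fell, where 37.1% of all genes passed. Eno3, an enolase isoenzyme best known from muscle, averaged 59.5 ± 18.1 CPM in regulatory T and 6.07 ± 1.35 CPM in naive CD4 cells (SD, n = 6 each, log2 fold change 3.06), while Eno1 fell. Slc2a3 (1.44) and Ldhb (1.08), the lactate dehydrogenase B subunit, also rose there. In memory CD4 over naive CD4 cells, where 22.0% of all genes passed, 3 of 19 rose, Eno3 (1.65), Pfkfb3 (1.11) and Slc2a3 (0.59), and Pdha1 (-0.41), a subunit of pyruvate dehydrogenase, fell. In memory CD8 over naive CD8 cells 4 of 18 rose, with Eno3 at 1.22, and 0 fell, where 15.9% of all genes passed. Most of these counts lie near the share over all genes.

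In naive CD8 over naive CD4 cells, where 36.1% of all genes passed, 2 of 19 rose and 5 fell, with Pkm (-0.54) and Ldhb (-1.32) among those that fell beside Ldha. In B over naive CD4 cells 4 of 20 rose and 12 fell, where 72.1% of all genes passed, with a median of -0.32. Ldhb averaged 0.363 ± 0.166 CPM in B and 12.01 ± 0.760 CPM in naive CD4 cells (SD, n = 6 each), and Pfkp (-2.21), Hk1 (-1.12) and Pkm (-0.83) were lower as well.

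Of 7 pentose phosphate genes, whose pathway branches off glycolysis and makes NADPH and ribose, 5 rose in cycling T and 4 in cycling B cells and 0 fell in either, where 48.9% and 41.1% of all genes passed. Tkt, transketolase, averaged 165 ± 17.7 CPM in cycling T and 70.9 ± 3.44 CPM in non-cycling T cells (SD, n = 6 each, log2 fold change 1.14). None of the 7 passed in memory CD4 or memory CD8 cells, 1 rose and 1 fell in regulatory T cells and in naive CD8 cells, and 4 rose and 1 fell in B cells. Of 14 genes of the hypoxia response, 4 rose and 4 fell of 14 tested in cycling T cells (48.9% of all genes passed), and 3 rose and 1 fell of 12 in cycling B cells (41.1%). Of 13 tested in each other comparison, 3 rose and 1 fell in memory CD4 cells (22.0%), 4 rose and 2 fell in regulatory T cells (37.1%), 3 rose and 3 fell in naive CD8 cells (36.1%), 1 rose and 2 fell in memory CD8 cells (15.9%), and 2 rose and 9 fell in B cells (72.1%). Hif1a, the inducible factor itself, averaged 388 ± 53.7 CPM in regulatory T and 88.9 ± 6.08 CPM in naive CD4 cells (SD, n = 6 each, log2 fold change 1.92) and 276 ± 49.5 CPM in memory CD4 cells (1.48). In cycling T cells Mif (1.06), a cytokine gene, rose, and Bnip3l (-0.64), a mitophagy receptor, and P4ha1 (-0.62), a collagen hydroxylase, fell.

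Cre-positive and Cre-negative mice were then compared within each gate, 3 mice against 3. By edgeR's quasi-likelihood test, here without a block and adjusted over all genes, 0 of the 10 genes passed in any of the 8 gates. By DESeq2 0 passed as well. The share of all genes tested that passed was 0.0412% in naive CD4, 0.0% in memory CD4, 0.0149% in regulatory T, 0.0434% in naive CD8, 0.114% in memory CD8, 0.0% in B, 0.0396% in cycling T and 0.0224% in cycling B cells. For the 2 gates with no gene called, 316 genes in memory CD4 and 504 in B cells had an unadjusted p under 0.05, and DESeq2 called 1 and 3 genes there. Of the 10 genes, 5 in cycling T cells and 2 each in memory CD4, regulatory T, naive CD8 and memory CD8 cells had an unadjusted p under 0.05. In B cells 1 did, and in naive CD4 and cycling B cells 0. The share of all genes tested under that cut was 7.68% in cycling T, 4.93% in memory CD4 and 5.45% in regulatory T cells. It was 6.0% in naive CD8, 5.44% in memory CD8, 4.97% in B, 5.29% in naive CD4 and 4.84% in cycling B cells. The low-count filter kept Hk2 out of the test in naive CD4, memory CD4, regulatory T and cycling B cells, and Slc2a1 in memory CD4 and cycling B cells.

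The smallest adjusted p was that of Gapdh in cycling T cells. Gapdh measured 1397, 1411 and 1288 CPM in cycling T cells of Cre-positive mice, against 949, 1103 and 1021 CPM in those of Cre-negative mice. The groups did not overlap, and the log2 fold change was 0.42 ± 0.11 (SE, adjusted p = 0.256). All 10 genes had a positive estimate in cycling T cells, with a median log2 fold change of 0.29 over the 10 and -0.003 over all genes tested.

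Ldha in cycling T cells measured 489, 657 and 509 CPM in Cre-positive mice, against 415, 480 and 442 CPM in Cre-negative mice (0.32 ± 0.13, SE, adjusted p = 0.529). Pgam1 in cycling T cells measured 153, 204 and 161 CPM in Cre-positive mice, against 135, 152 and 123 CPM in Cre-negative mice (0.35 ± 0.14, adjusted p = 0.524). Pgk1 measured 272, 301 and 262 CPM in Cre-positive mice, against 238, 259 and 204 CPM in Cre-negative mice (0.26 ± 0.13, adjusted p = 0.649). In none of the 3 did the groups overlap, though the gaps between them were narrow. Cycling T cells had a median of 8164 to 13013 UMIs per cell in Cre-positive and 6196 to 10175 in Cre-negative mice. With cells thinned to 2000 UMIs, Gapdh (0.38), Ldha (0.40), Eno1 (0.45), Gpi1 (0.29) and Pgk1 (0.15) had positive estimates, Aldoa had -0.25 and the other 4 genes were not tested. In cycling T cells the 7 stress genes summed to 1417 to 1484 CPM in Cre-positive and 1597 to 1718 CPM in Cre-negative mice. The 6 myeloid markers, of which Lyz2 and C1qa were at 0, summed to 112.5 to 144 CPM in Cre-positive and 150.3 to 347 CPM in Cre-negative mice. Neither pair of ranges overlapped, and their part in these estimates was not tested.

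Tpi1 had the largest estimates of the tested genes in regulatory T and memory CD4 cells. In regulatory T cells it measured 57.8, 43.3 and 51.7 CPM in Cre-positive mice, against 21.1, 38.1 and 25.2 CPM in Cre-negative mice, with no overlap (0.92 ± 0.25, SE, adjusted p = 0.448). Memory CD4 cells had 33.0, 37.2 and 38.1 CPM in Cre-positive mice, against 24.1, 24.8 and 12.8 CPM in Cre-negative mice, again with no overlap (0.76 ± 0.28, adjusted p = 0.98). Memory CD8 cells had 29.7, 34.6 and 31.9 CPM in Cre-positive mice, against 23.5, 22.0 and 21.9 CPM in Cre-negative mice (0.51 ± 0.20, adjusted p = 0.769), also apart. The 3 natural killer markers in that gate, of which Ncr1 and Klrb1c were at 0, summed to 18.88 to 48.02 CPM in Cre-positive and 1.57 to 2.35 CPM in Cre-negative mice, and their part in this estimate was not tested. The naive CD4 (0.16 ± 0.16), naive CD8 (0.35 ± 0.18) and B (0.09 ± 0.10) estimates were smaller and the groups overlapped, and cycling B cells had an estimate of -0.52 ± 0.31.

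**Figure D3:**
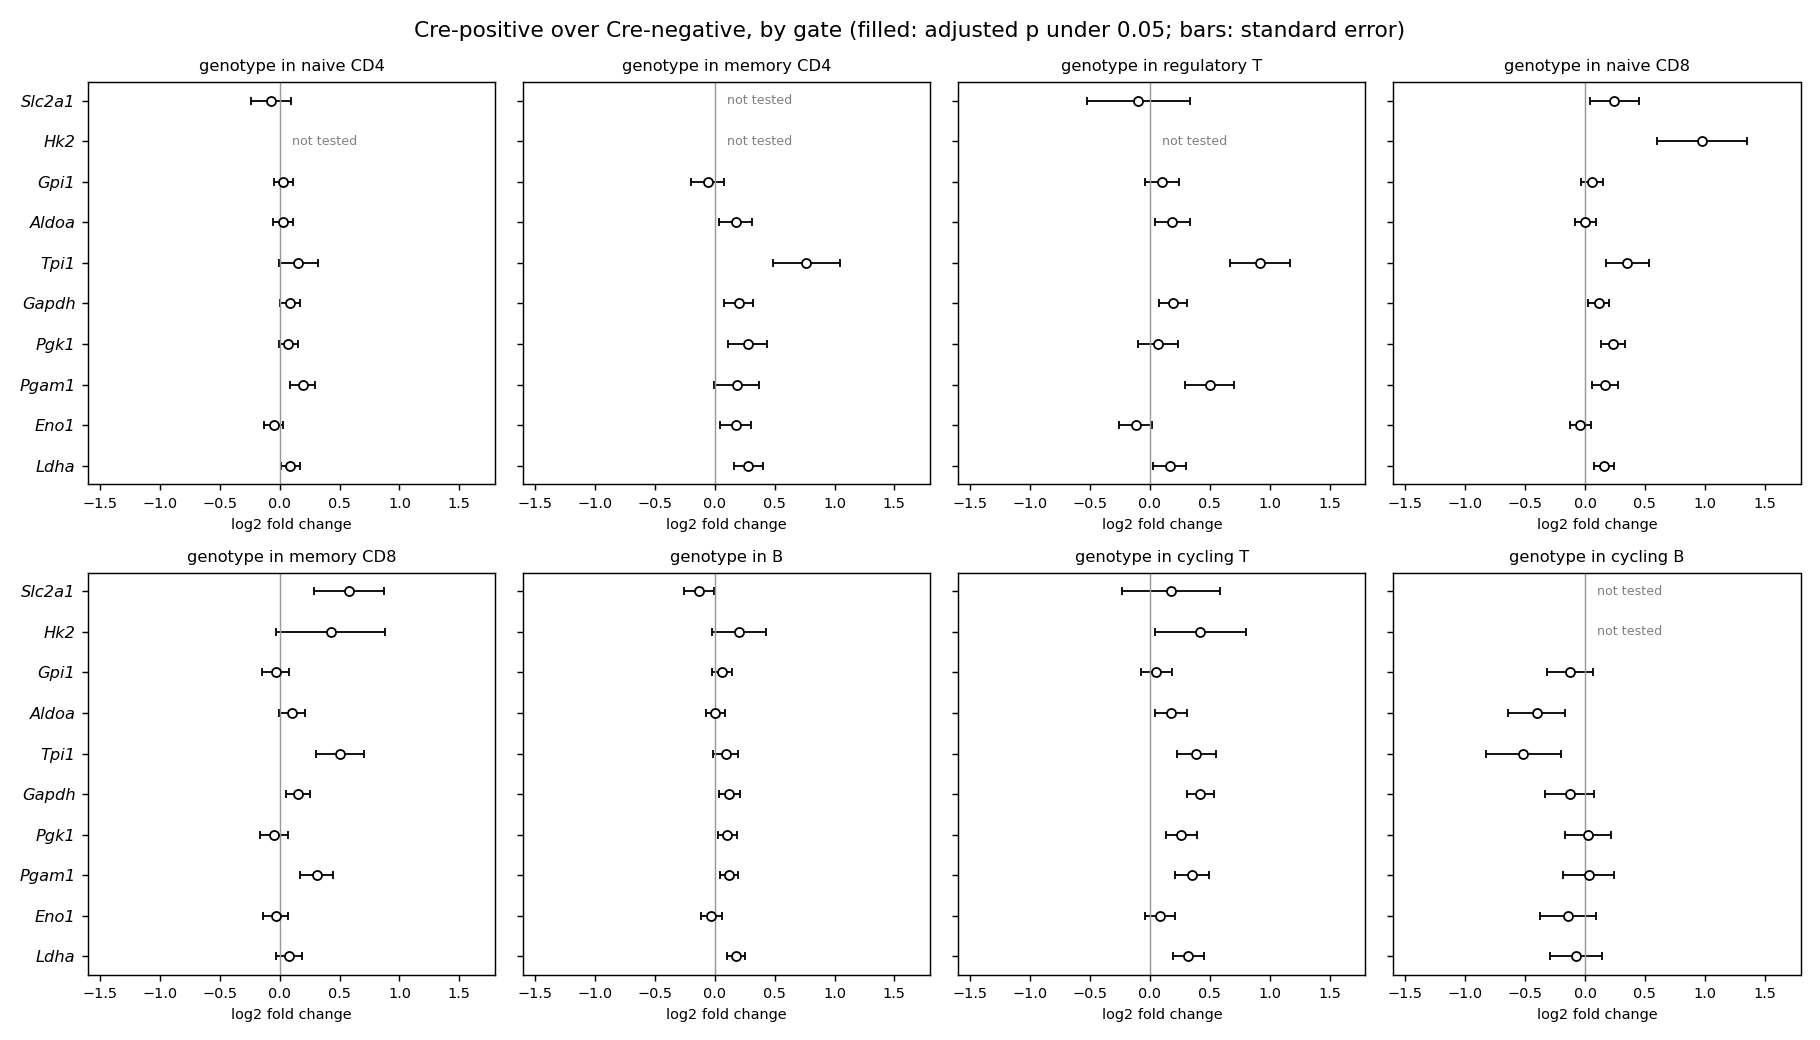
Log2 fold change of Cre-positive over Cre-negative mice (x axis) for each of the 10 genes in the 8 gates, with bars of 1 SE and genes the low-count filter left out marked as not tested. All points are open, since none passed an adjusted p of 0.05, and the cycling T panel holds positive estimates for all 10 genes with a median of 0.29.

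Among tested genes of the 10, all 3 Cre-positive values stood above all 3 Cre-negative values for 4 genes in cycling T cells. The same held for 3 (Tpi1, Eno1 and Ldha) in memory CD4 cells. It held for 2 each in regulatory T (Tpi1 and Pgam1) and naive CD8 cells (Pgk1 and Ldha). Memory CD8 (Tpi1 and Gapdh) and B cells (Pgam1 and Ldha) also had 2 each, and naive CD4 and cycling B cells had 0. In no gate did a tested gene of the 10 lie wholly below. Over all genes tested, the share that lay wholly above was 4.41% to 5.77% per gate, and the share wholly below was 4.24% to 6.23%. The median log2 fold change of the tested genes of the 10 was 0.07 in naive CD4, 0.19 in memory CD4, 0.16 in regulatory T, 0.16 in naive CD8, 0.13 in memory CD8, 0.10 in B and -0.13 in cycling B cells, against medians over all genes between -0.003 and 0.007. The 10 genes are read from the same cells and are not independent of each other, and the cause of these differences was not tested.

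Hk2 in cycling B cells was left out by the filter, at 21.7, 29.5 and 82.8 CPM in Cre-positive mice, against 10.6, 11.6 and 17.7 CPM in Cre-negative mice, from 4 to 26 UMIs per mouse. Without Cre-positive mouse 1 it entered the test and passed with a log2 fold change of 2.09 (adjusted p = 0.0118), and this was the only setting tried in which a gene of the 10 passed between the genotypes. The value without that mouse rests on 2 Cre-positive sums, 1 of which, Cre-positive mouse 3, has the high myeloid sum given above, and the other, Cre-positive mouse 2, the high plasma cell sum. Cre-negative mouse 1, with the high red cell sum, was among those they were set against.

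Whether the genotype difference itself differed between gates was tested for 4 pairs. For memory CD4 minus naive CD4 cells 0.0% of genes passed (450 at an unadjusted p under 0.05, and 0 by DESeq2), for regulatory T minus naive CD4 cells 0.0515%, for memory CD8 minus naive CD8 cells 0.137% and for B minus naive CD4 cells 0.0184%. None of the 10 genes was among them by either tool. Tpi1 in regulatory T minus naive CD4 cells had an estimate of 0.74 ± 0.30 (SE, adjusted p = 0.899 by edgeR). Hk2 had -2.44 ± 0.91 for memory CD4 minus naive CD4 cells (adjusted p = 1.0), where the sums held 1 to 15 Hk2 UMIs. None of the other pathway, pentose phosphate or hypoxia genes passed in any of these tests or between the genotypes within a gate.

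The 10 genes did not move as a block across cells. Over the 48 sums of 8 gates and 6 mice, which share libraries within a mouse and depth within a gate, log2(CPM + 1) of Tpi1 and Gapdh had a Pearson r of 0.94, Gapdh and Pgk1 0.93 and Tpi1 and Pgam1 0.91. Without the 2 cycling gates the 3 values were 0.74, 0.54 and 0.60 over 36 sums. Eno1 and Ldha kept 0.73 without the cycling gates, against 0.79 with them, while Pgam1 and Eno1 had 0.14 with and -0.59 without. Slc2a1 had a median r of -0.17 with the other 9. These are descriptions with no test.

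**Figure D4:**
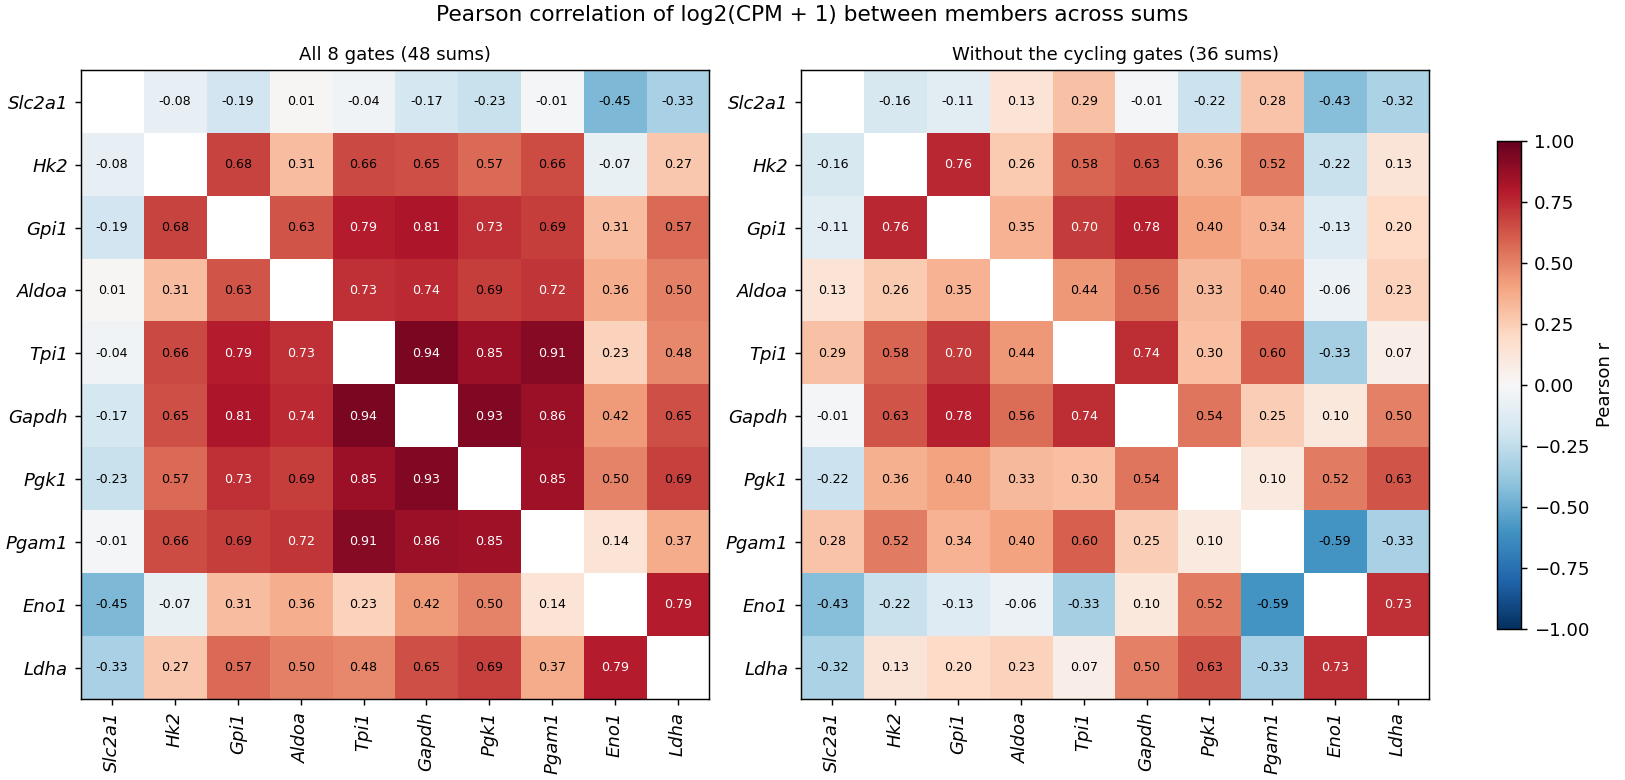
Pearson r between each pair of the 10 genes over log2(CPM + 1), for all 48 sums (left) and for the 36 without the 2 cycling gates (right). Tpi1, Gapdh, Pgk1 and Pgam1 form a block of high r that is paler without the cycling gates, and Slc2a1 has a median r of -0.17.

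Among 6657 other genes with a gate mean of 20 CPM or more, those with the highest Pearson r to the mean log2(CPM + 1) of the 10 over the 48 sums were Rps27l (0.96), a ribosomal protein S27 paralogue, Txn1 (0.95), thioredoxin, and Vdac1 (0.95), the channel of the outer mitochondrial membrane. Pomp (0.94), a proteasome assembly factor, Txnl1 (0.94), Mcm6 (0.94), a subunit of the replicative helicase, Psmb2 (0.94), a proteasome subunit, and Dctpp1 (0.94), a deoxynucleotide triphosphate hydrolase, completed the 8. All 8 had their highest mean in a cycling gate, as Dctpp1 with 133 CPM in cycling T and 17.0 CPM in naive CD4 cells shows.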

How the data were processed

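The authors deposited unnormalized UMI counts for every gene in every cell barcode. Reads had been aligned to mm10 with Cell Ranger 6.1.2, per the submitters' processing notes, and which annotation release was used is not given in the sources used here. Positions of genes came from GENCODE M21 and promoter windows from RefSeq (GRCm38.p6), both of the same build. The floxed gene is not reported here.

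Cells were kept at 500 UMIs, 300 genes and at most 10% mitochondrial UMIs, and doublets were scored with Scrublet (scanpy 1.11.5) and removed at 0.8% per 1000 barcodes. This kept 6834 to 9529 cells per library, at a median of 4239 to 5596 UMIs. Cells were gated on the UMIs of marker genes. T cells needed 1 or more UMIs of Cd3d, Cd3e or Cd3g and none of B, gamma-delta T, natural killer or myeloid markers. CD4 cells had Cd4 and no Cd8 UMI, CD8 cells 2 or more of Cd8a plus Cd8b1 and no Cd4, and regulatory T cells Foxp3. Naive cells had 2 or more UMIs of naive markers such as Ccr7 and none of a memory list (S100a4, S100a6, Itgb1, Cxcr3 and others), and memory cells 2 or more of that list. B cells had Cd79a and another B marker and no T marker. Cycling cells had 2 or more UMIs of Mki67, Top2a, Cdk1, Ccna2, Birc5 and Rrm2, and the other gates had none.

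Counts were summed per mouse and gate and tested with edgeR 4.0.16 (quasi-likelihood, TMM, low-count filter, robust, in R 4.3.3), with Benjamini-Hochberg adjustment over all genes tested and a threshold of 0.05. Comparisons between gates had the mouse as a block. DESeq2 1.42.0, total-UMI scaling, no low-count filter, a 5% mitochondrial limit, doublets kept, cells thinned to 2000 UMIs (149 to 490 shallower cells left out per library), stricter gates, the replicate block and each mouse left out were alternatives. A fit needed 10 or more cells in each mouse. The scripts were tested on simulated data. All 10 genes were named in every comparison, and of the other lists the first 6 by p that passed. The genes and lists were chosen with earlier results of these data known.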

Additional observations from a re-analysis of the deposited data

Results flagged for a closer look

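In 5 of 70 sets of 6 per-mouse log2 differences between gates, the most extreme mouse stood apart from the next by more than Dixon's 95% limit, which chance passes about 1 time in 20. For Slc2a1 in memory CD8 over naive CD8 cells, Cre-positive mouse 2 was highest at 0.95, and the next mouse had 0.32. For Pgk1 in cycling T over non-cycling T cells, Cre-negative mouse 3 was lowest at 1.11, and the next had 1.47. For Gpi1 in B over naive CD4 cells, Cre-positive mouse 1 was highest at 0.22, with 0.16 next. For Aldoa in B over naive CD4 cells, Cre-positive mouse 3 was lowest at -0.09, with 0.03 next. For Slc2a1 in cycling B over B cells, Cre-negative mouse 2 was lowest at -1.61, with -0.41 next.

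Tpi1 in naive CD8 over naive CD4 cells differed in direction between the genotypes. All 3 Cre-positive mice had a positive difference (0.007, 0.239 and 0.107 on the log2 scale of CPM). All 3 Cre-negative mice had a negative one (-0.166, -0.049 and -0.015). The smallest of each group was close to no difference. The Tpi1 values in naive CD8 cells rested on 11.6 to 19.5 CPM, and this difference was not tested.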

How the results depend on the processing

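Of 50 calls of the 10 genes, 23 passed under every alternative in which the gene was tested and 27 lost the call under 1 or more, 5 of them with a change of sign, while 9 of 134 results without a call gained a call in some setting. The causes were not tested. Sign changes came with total UMI counts (Aldoa in regulatory T cells, 0.026) and with thinned cells (Eno1 in naive CD8 cells, 0.007, Aldoa, -0.017, and Eno1, -0.001, in cycling T cells, and Aldoa in cycling B cells, -0.537).

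Counts of called genes over the whole table moved as follows. DESeq2 called 1 gene between genotypes in memory CD4, 3 in B and 3 in cycling B cells, 1424 in memory CD4 over naive CD4, 2075 in naive CD8 over naive CD4 and 694 with 4 of the 10 in memory CD8 over naive CD8 cells, and 3, 5 and 1 genotype-effect differences in regulatory T, memory CD8 and B cells. Total UMI counts gave 2 genes between genotypes in naive CD8 cells, both higher in Cre-positive mice, where TMM gave 2 higher and 2 lower, and 8 of the 10 in memory CD4 over naive CD4 cells. Without the low-count filter the genotypes differed in 10 genes in naive CD4, 4 in memory CD4, 2 in regulatory T, 18 in naive CD8, 29 in memory CD8, 10 in B, 20 in cycling T and 33 in cycling B cells, and effects in 1 (memory CD4), 8 (regulatory T) and 6 (B). A 5% mitochondrial limit gave 1 in memory CD4 and 0 in regulatory T and memory CD8 cells, and effects of 2 (memory CD4), 9 (regulatory T), 4 (memory CD8) and 8 (B). Keeping doublets gave 7 in naive CD4, 0 in regulatory T and 2 in cycling B cells. Thinned cells gave 1 in naive CD4, memory CD4 and cycling T and 0 in naive CD8, memory CD8 and cycling B cells, effects of 1 (memory CD4), 0 (regulatory T) and 0 (memory CD8), and between gates 723 genes with 1 of the 10 (memory CD4), 1037 with 1 (regulatory T), 969 with 2 (naive CD8), 158 with 0 (memory CD8), 1849 with 5 (cycling T), 4744 (B) and 1790 with 4 (cycling B). Stricter gates gave 0 in regulatory T and memory CD8 cells, 1233 in memory CD4, 1629 with 3 of the 10 in regulatory T and 2080 with 3 in naive CD8 over naive CD4 cells, and 1 effect each in memory CD4, regulatory T, memory CD8 and B cells. The replicate block gave 6 genes in regulatory T, 13 in naive CD8, 20 in memory CD8, 1 in B, 1 in cycling T and 6 in cycling B cells, and none of the 10. Same-numbered pairs of mice had correlations of -0.129, -0.416 and 0.45 in naive CD4 cells. In regulatory T cells they were 0.027, 0.0 and 0.047, where other pairs reached 0.015. In memory CD8 cells they were 0.021, 0.003 and 0.104, where other pairs reached 0.065. Per gate, 0 to 4 of 6 samples correlated best with their own number, with 4 in regulatory T cells, and the numbers were not taken as pairs. Without the mouse block, 2 of the 10 passed in naive CD8 over naive CD4 cells, 849 genes with 4 of the 10 in memory CD8 over naive CD8 cells, and 1, 2 and 1 effects in regulatory T, memory CD8 and B cells. Leaving out class II-high T cells, chosen after seeing the data, gave 3 genes between genotypes in memory CD4 cells.

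With each mouse left out, the genotypes differed in 5 to 18 genes in naive CD4, 0 to 5 in memory CD4, 0 to 4 in regulatory T, 5 to 19 in naive CD8, 9 to 21 in memory CD8, 0 to 3 in B, 1 to 10 in cycling T and 0 to 86 in cycling B cells, where 0 to 1 of the 10 passed. Between memory CD8 and naive CD8 cells 4 to 6 of the 10 passed, and effects numbered 0 to 3 (memory CD4), 3 to 14 (regulatory T), 6 to 17 (memory CD8) and 2 to 7 (B). The cycling B comparisons were not run under the 5% limit and stricter gates, with under 10 cells in a mouse. Precision is limited in the smallest gate, with 23 to 57 cycling B cells and 4 to 26 Hk2 UMIs per mouse.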
